A study of Mus musculus with 9 samples.

Results

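Genes of the extracellular matrix and of the enzymes that crosslink or cut it were followed across 9 expression arrays of NIH 3T3 cells, an established line of mouse embryonic fibroblasts. Members were taken from a list of 42 symbols, and a probe set, the group of short probes that gives 1 value per array, counted when the platform annotation named only that gene. Of the 42 genes 40 had such a probe set, 98 probe sets in all, out of 18193 genes named in this way on the array. Fbn1 and Loxl2 had none. The genes fall into 5 classes: 13 collagens, 12 glycoproteins, 5 genes for proteoglycans and a hyaluronan synthase, 5 crosslinking enzymes, and 7 proteases and inhibitors.

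The 3 groups had 3 arrays each, numbered 1, 3 and 7 and described as biological replicates of separate origin. Every culture was starved of serum and received cycloheximide, which blocks translation, at 3 µg/ml over 2 h. Control cultures got no actin drug. The cytochalasin D group got that drug at 2 µM for 90 min, and the last group got cytochalasin D at 2 µM together with latrunculin B at 5 µM, again for 90 min. For that last group the titles mention latrunculin B alone, but the agent field and the design text list the pair of drugs; the agent field was used here, and these arrays are called the double-drug group. All cultures are 1 cell line, so the replicates carry no variation between animals.

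Fibroblasts make most of the body's fibrous matrix. Collagen chains are hydroxylated and assembled inside the cell, secreted, cut to size and then joined by lysyl oxidases, while fibronectin, laminins and proteoglycans link the fibres to each other and to integrins. Metalloproteinases remove matrix and the TIMP proteins inhibit them. Integrins tie the matrix to actin filaments, and both drugs change the actin inside the cell: cytochalasin D caps filaments and frees the coactivator MRTF from monomeric actin, whereas latrunculin B binds actin monomers. MRTF works with serum response factor (SRF). The question the design puts to these genes is which of their transcripts follow that switch when no new protein can be made.

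Values are intensities on a linear scale as deposited, and changes are differences of log2(intensity + 16), which are smaller for dim probe sets than differences without the added 16. Tests covered probe sets that exceeded the 40th percentile of an array's values on 3 or more arrays, and a change was called at an adjusted p under 0.05 (limma, adjusted over all 27010 probe sets tested). Array medians lay between 7.57 and 7.84. Of 10 fibroblast markers, 9 had a mean intensity of at least 100 (Vim, Thy1, Pdgfra and S100a4 among them), and Fap did not. All 7 endothelial, all 5 skeletal muscle and all 4 adipocyte markers measured lay under 20. In the macrophage and leukocyte list 4 of 7 lay under 20 and 2 reached 100 (Cd14 and Lyz2), and in the epithelial list 7 of 8 lay under 20 and 1 reached 100 (Krt14). Summed over its list, the macrophage and leukocyte level ran from 368 to 440.1 in controls, 279 to 381 with cytochalasin D and 329.7 to 386 with both drugs, and the epithelial one from 144 to 211, 132 to 235.5 and 143.5 to 179. Ptprc, which marks leukocytes, had a mean of 5.10, and Cdh1 and Epcam, which mark epithelia, 8.79 and 13.1. The part of other cells in the results was not tested, and in such bulk samples fewer cells of a type cannot be told apart from less RNA per cell. On the same arrays Acta1, skeletal muscle alpha-actin and a target of SRF, had 19.2 ± 1.07 in controls, 1168 ± 479 with cytochalasin D and 56.0 ± 18.3 with both drugs (SD, n = 3), and Srf had 187 ± 30.9, 1475 ± 311 and 827 ± 164 (SD, n = 3).

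Matrix probe sets were called about as rarely as those of the array as a whole. Of the 98 probe sets 87 were tested, for 37 genes; Lum, Mmp3 and Mmp13 had none. With cytochalasin D against control, 0 rose and 1 fell, a dim probe set of Col1a2, and 86 were not called in limma. Over the whole array 1.57% of the tested probe sets were called, 1.14% higher and 0.422% lower. At an unadjusted p under 0.05 there were 10 member probe sets of 87, where the array as a whole had 10.2%. The double-drug group against control gave 0 calls among the 87 (2 at an unadjusted p under 0.05), where 0.111% of the array was called (0.0111% lower) and 5.28% had such an unadjusted p. Cytochalasin D against the double-drug group gave 0 calls among the 87 as well, beside 0.259% of the array (0.0111% lower). At an unadjusted p under 0.05 there were 8 of the 87, a larger share than the 4.22% of the array. In a fit with the replicate number as a factor, the members called were 4 (both probe sets of Thbs1, the brighter one of Tnc and the dim one of Col1a2), 0 and 0 in these comparisons, beside 3.87%, 0.455% and 0.367% of the array. Each pair of these comparisons shares 1 group of arrays, so their results are not independent.

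With the brightest tested probe set standing for each gene, the median log2 change of the 37 genes was 0.0316 with cytochalasin D against control, −0.0127 with both drugs against control and 0.0654 with cytochalasin D against both drugs. The medians over all probe sets tested were −0.000977, 0.00315 and −0.00592. In the first comparison 31 of the 37 changes were under 0.2 in size, in the second 32 and in the third 31. The 95% intervals of 33, 34 and 34 genes, each on its brightest probe set, stayed within a 2-fold change in either direction. They bound the change of that probe set, and other probe sets of a gene can differ. For Timp3, with cytochalasin D against control, the interval was 0.22 to 0.81 on the brightest. On its other probe sets it was 0.18 to 0.59, −0.23 to 1.61 and −0.48 to 2.34. Fbln1, with a mean of 6.86, counts as within a 2-fold change, but the constant added before the log shrinks changes of so dim a probe set. By class, the median change with cytochalasin D against control was 0.00685 for 13 collagens, 0.0357 for 11 glycoproteins, −0.0094 for the 4 genes of the proteoglycan class, Has2 included, 0.0497 for 4 crosslinking enzymes, and 0.079 for 5 proteases and inhibitors. With both drugs against control these medians were −0.0127, −0.019, −0.1, −0.0258 and 0.0267 in the same order. Between cytochalasin D and both drugs they were 0.0484, 0.107, 0.00647, 0.0919 and 0.0654. There, 27 of the 37 changes were above 0 and 10 below.

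**Figure D1:**
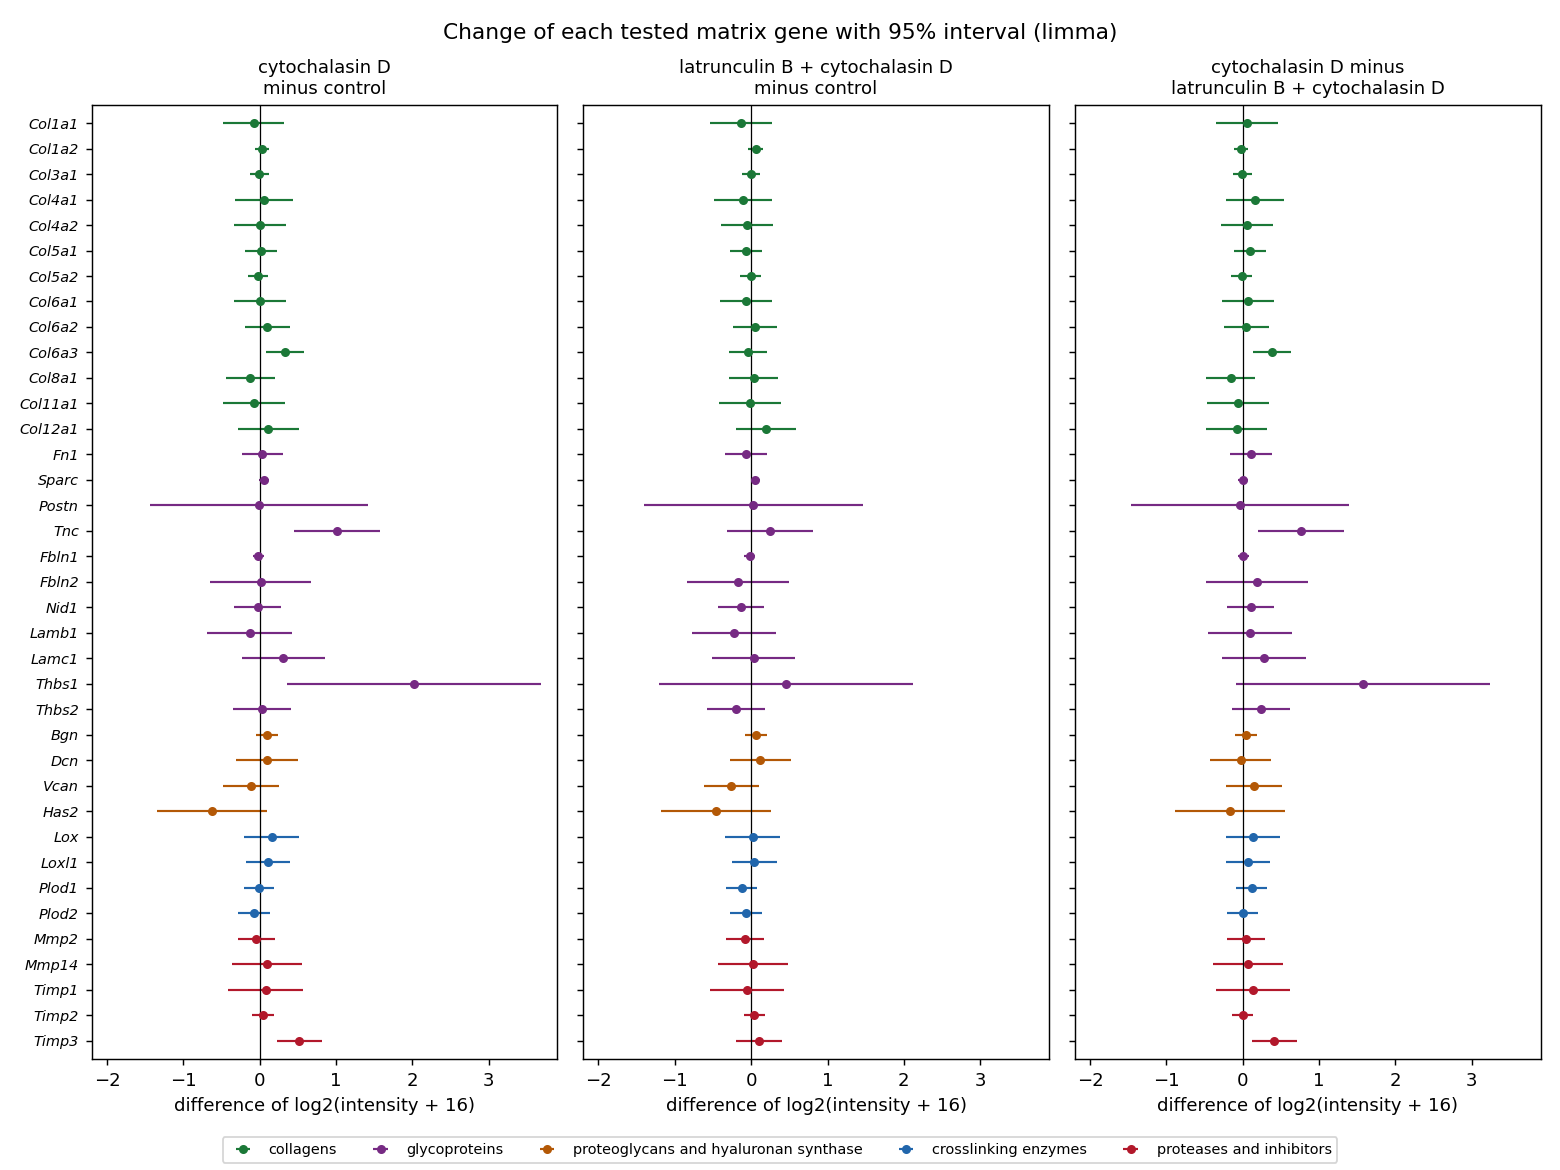
Difference of log2(intensity + 16) for each of the 37 tested matrix genes (points, the brightest tested probe set) with its 95% interval from limma (bars), in the 3 comparisons, coloured by class. Thbs1, Tnc, Timp3 and Col6a3 (0.33) stand right of 0 in the first panel and Has2 left of it, while the other collagens and the crosslinking enzymes cluster near 0.

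Group values without overlap were counted as a second view, with no test. Against control, 7 of the 87 probe sets had all 3 cytochalasin D values above all 3 control values and 3 had them below, 11.5% together, and the share over the array was 11.5% (5.05% higher and 6.45% lower), so the members did not stand out. The 7 higher ones belong to 4 genes: Thbs1 (2), Tnc (2), Timp3 (2) and Col6a3 (1). Between cytochalasin D and both drugs 11 of 87 were parted, 12.6%, beside 6.26% over the array. All 11 were higher with cytochalasin D alone (the array had 2.92% higher and 3.33% lower): the same 7, both probe sets of Fn1, 1 of Lamb1 and 1 of Lamc1. Between both drugs and control 0 were parted higher and 3 lower (Col1a2, Fn1 and Vcan, 1 each), 3.45% in all, beside 8.08% over the array (4.09% higher and 3.99% lower).

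Thbs1, thrombospondin 1, a secreted glycoprotein that binds matrix, growth factors and cell receptors, had the largest difference of any member. Its brighter probe set read 3102, 1282 and 564 in control replicates 1, 3 and 7. With cytochalasin D the same numbers read 6751, 6142 and 3804, and with both drugs 3609, 1588 and 1020.1. All 3 cytochalasin D values lay above every control and every double-drug value, while controls and double-drug arrays overlapped; within each replicate number the double-drug value was above the control. Group means were 1649 ± 1308, 5566 ± 1556 and 2073 ± 1361 (SD, n = 3), a 3.37-fold higher mean with cytochalasin D than in controls. The log2 change was 2.03 (SE 0.70, 95% interval 0.36 to 3.69) and did not pass the test (adjusted p = 0.362). The 3 controls themselves spanned a 5.5-fold range, and within each replicate number the cytochalasin D value was above the control. In limma with the number as a factor the change was called (adjusted p = 0.0431), but the numbers were not taken to pair these samples. Against the double-drug group the difference was 1.57 (interval −0.09 to 3.24), and between both drugs and control 0.45 (interval −1.21 to 2.12). These intervals come from the fit without the replicate number. With the number as a factor neither difference passed (limma, adjusted p = 0.197 and 0.739).

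A second Thbs1 probe set showed the same order at lower intensities. It gave 1662, 674 and 230.2 in controls, 4238, 4018 and 2219 with cytochalasin D and 1953, 803 and 413 with both drugs. Again the cytochalasin D arrays were parted from both other groups, and control replicate 7 was the lowest of all 9. Its log2 change against control was 2.36 (SE 0.81, adjusted p = 0.363), and it too was called with the number as a factor (limma, adjusted p = 0.0413). Its spread among controls was wider still, a 7.22-fold range.

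Tnc, tenascin C, a large glycoprotein of injured and remodelling tissue, read 352, 338 and 193 in control replicates 1, 3 and 7, 706, 556 and 532 with cytochalasin D and 367, 374 and 292 with both drugs. The lowest cytochalasin D value lay above the highest of the other 6. The mean was 2.03 times that of controls, with a log2 change of 1.02 (SE 0.24, 95% interval 0.45 to 1.58, adjusted p = 0.133), which did not pass. In limma with the replicate number as a factor this change was called (adjusted p = 0.0333), but the numbers were not taken to pair these samples. Against the double-drug group the difference was 0.77 (interval 0.20 to 1.33, adjusted p = 0.779), and both drugs against control gave 0.25. With the number as a factor neither of these differences passed (limma, adjusted p = 0.171 and 0.649). A dim second probe set lay between 11.2 and 13.2 in controls, between 14.2 and 26.7 with cytochalasin D and between 11.5 and 12.2 with both drugs, with a change of 0.38 against control that was called without cytochalasin D replicate 3 (0.51, adjusted p = 0.026). When only probe sets with a mean of at least 100 were tested, a choice made after seeing the data, the brighter Tnc probe set was called (adjusted p = 0.0432).

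Timp3, an inhibitor of metalloproteinases that stays bound to the matrix, had 4 probe sets, and all 4 were higher on average with cytochalasin D. The brightest read 3801, 3169 and 2644 in control replicates 1, 3 and 7, 4414, 4409.6 and 4824 with cytochalasin D and 3527, 3476 and 3218 with both drugs. No cytochalasin D value overlapped with those of either other group. Its log2 change against control was 0.52 (SE 0.12, 95% interval 0.22 to 0.81, adjusted p = 0.144), a 1.42-fold higher mean, and it passed without control replicate 1 (0.65, adjusted p = 0.0352). The next read 2487, 2622 and 2345 in controls, 2911, 3295 and 3567 with cytochalasin D and 2458, 2811 and 2587 with both drugs, also without overlap, and its change of 0.39 (adjusted p = 0.117) passed without cytochalasin D replicate 1 (0.46, adjusted p = 0.0497). The other pair had changes of 0.69 and 0.93, but their groups overlapped: the dimmer one had 1006, 383 and 262 in controls and 1214, 1008 and 607 with cytochalasin D, so that control replicate 1 almost equalled cytochalasin D replicate 3. Between both drugs and control the 4 changes lay between 0.07 and 0.14. In the reference gene table Timp3 lies within the span of another gene, Syn3.

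**Figure D2:**
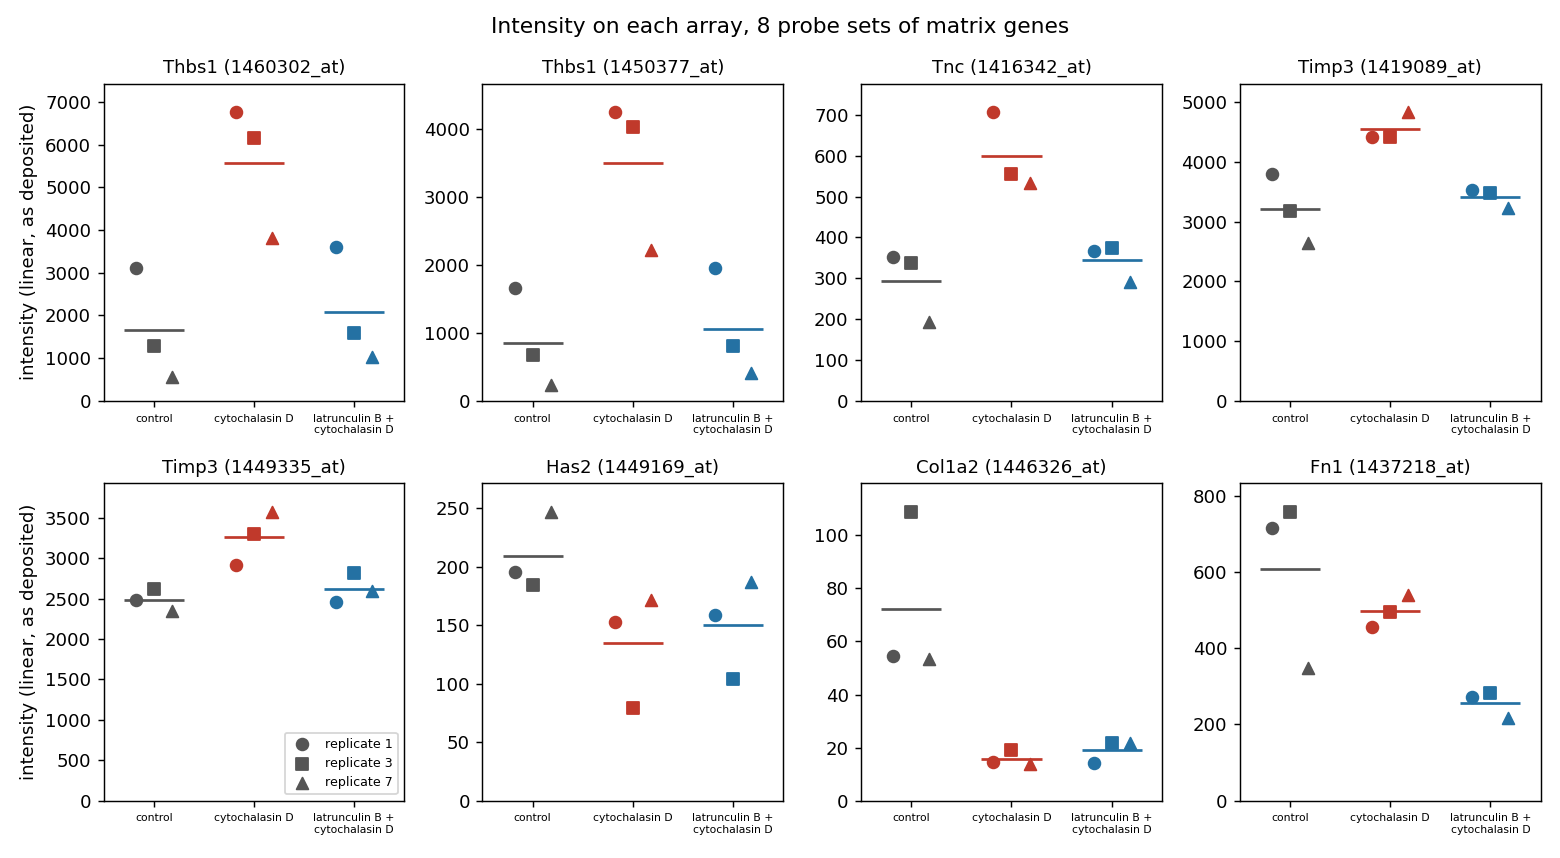
Deposited intensity (linear scale, from 0) of 8 probe sets of 6 matrix genes on each of the 9 arrays; marker shapes give the replicate number and lines the group means. The cytochalasin D arrays lie above both other groups for Thbs1, Tnc and both Timp3 probe sets, the controls lie above both drug groups for the dim Col1a2 probe set, and the double-drug arrays lie below both other groups for the Fn1 probe set.

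The stretches before the start sites of Timp3 and Tnc are shown because both genes had cytochalasin D values parted from those of both other groups and entries in the reference promoter table (RefSeq, GRCm38.p6). Of the 42 genes 28 had an entry, 32 windows in all, each reaching from 250 bases before a start to 50 after it; Thbs1 had none. The windows were searched on both strands for the CArG box, the site of SRF (CC, then 6 letters that are A or T, then GG), for TATAAA, for CATTCC, the core that TEAD factors bind, and for TGANTCA, bound by AP-1. Printed are the 250 bases before the start, 5′ to 3′, with any match in capitals.
Timp3, chr10:86300162-86300411, plus strand: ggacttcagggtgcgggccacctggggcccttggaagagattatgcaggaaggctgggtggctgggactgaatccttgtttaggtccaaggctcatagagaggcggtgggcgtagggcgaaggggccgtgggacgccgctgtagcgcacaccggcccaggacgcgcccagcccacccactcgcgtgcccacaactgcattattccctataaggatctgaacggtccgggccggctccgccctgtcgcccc
Tnc, chr4:64047016-64047265, minus strand: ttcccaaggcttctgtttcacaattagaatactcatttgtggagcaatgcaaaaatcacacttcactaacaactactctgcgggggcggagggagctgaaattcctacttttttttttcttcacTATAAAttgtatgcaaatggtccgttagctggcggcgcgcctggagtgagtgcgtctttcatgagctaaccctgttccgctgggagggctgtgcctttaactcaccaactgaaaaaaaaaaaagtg
Timp3 held none of these motifs. Tnc has 2 starts in the table; the same TATAAA begins 126 bases before the one whose window is printed and 205 bases before the other. A CArG box was in 0 of the 32 member windows and in 1.63% of all 32851 windows of this length. TATAAA was in 8 of 32 (13.6% of all), CATTCC in 4 of 32 (14.7%) and TGANTCA in 3 of 32 (7.81%). These are matches of letters, and sites outside the windows were not searched.

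Collagens are the fibre-forming and network-forming chains. Of 27 tested probe sets 1 fell and 26 were not called with cytochalasin D against control, and 0 were called in the other comparisons. Col3a1, the main chain of type III collagen, read 21958, 24443 and 22387 in control replicates 1, 3 and 7, 21888, 23443 and 23277 with cytochalasin D and 22131, 23809.7 and 22861 with both drugs. The 3 groups overlapped fully, and the 95% interval of its change with cytochalasin D ran from −0.12 to 0.12 on the log2 scale. Col1a2, the second chain of type I collagen, read 22876, 23288 and 23877 in controls, 22627, 25090.3 and 23928 with cytochalasin D and 23810.5, 24295 and 24760.5 with both drugs on its brightest probe set, with a change of 0.03 (interval −0.06 to 0.12). Another read 8329 ± 355, 8224 ± 453 and 8172 ± 397 (SD, n = 3). Neither showed a group apart.

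The remaining Col1a2 probe set, a dim one, was the only member call with the filter and fit stated at the start, without the replicate number. It read 54.5, 109 and 53.5 in control replicates 1, 3 and 7, 14.7, 19.2 and 13.6 with cytochalasin D and 14.2, 21.9 and 21.7 with both drugs. Every value of both drug groups lay below every control. It fell with cytochalasin D by 1.42 on the log2 scale (SE 0.24, 95% interval −1.98 to −0.86, adjusted p = 0.0412), and the change with both drugs was −1.27 (adjusted p = 0.182). The size of the change held better than the call: leaving out 1 array at a time it lay between −1.56 and −1.14. Dropping control replicate 1 or 7 ended it in limma (adjusted p of 0.0591 and 0.0739), as did dropping any cytochalasin D array (0.102, 0.117 and 0.122 for replicates 1, 3 and 7) or any double-drug array (0.0768, 0.0925 and 0.0895), and it held without control replicate 3 (0.0218). The call was kept with quantile normalization (0.0366), median centring (0.0138), a trended prior (0.0219), a pseudocount of 1 (0.0233) and the filter at the 60th percentile (0.0114). It was lost with a pseudocount of 64 (log2 change −0.75, adjusted p = 0.085), with no filter (0.0868), with only the 6 arrays compared (0.19), and without the 3 arrays numbered 1 (0.182).

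Col6a3, a chain of the beaded type VI collagen, was the one collagen with a bright probe set parted between groups. It read 1866, 1977 and 1780.0 in controls, 2103, 2233 and 2809 with cytochalasin D and 1813, 1761 and 1872 with both drugs. Cytochalasin D replicate 7 was the highest of the 9, and all 3 cytochalasin D values lay above the other 6. Its change was 0.33 against control (SE 0.10, adjusted p = 0.297) and 0.38 against the double-drug group (adjusted p = 0.6). Its partners Col6a1 and Col6a2 had changes of 0.00 and 0.10 against control, with groups that overlapped.

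No group stood apart among the collagens of basement membranes and fibril surfaces. Col4a1, a chain of the basement membrane network, read 1290.3, 1716 and 1632 in controls, 1523, 1362 and 1962 with cytochalasin D and 1334, 1399.7 and 1555 with both drugs. Cytochalasin D replicates 3 and 7 lay at opposite ends of that group, and all 3 groups overlapped. Col12a1, a collagen on the surface of fibrils, read 56.3, 42.1 and 28.5 in controls, 44.4, 48.7 and 44.8 with cytochalasin D and 56.4, 48.0 and 44.5 with both drugs and had, among the brightest probe sets of the collagens, the largest change with both drugs against control, 0.19 (interval −0.20 to 0.59). Control replicate 7 was its lowest value, and the groups overlapped. The remaining collagens, Col1a1, Col4a2, Col5a1, Col5a2, Col8a1 and Col11a1, had changes with cytochalasin D against control, each on its brightest probe set, between −0.12 (Col8a1) and 0.02 (Col5a1), and their other probe sets lay between −0.07 (Col11a1) and 0.11 (Col8a1).

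Glycoproteins held the widest range, from Thbs1 and Tnc above to genes with almost no difference. Fn1, fibronectin, the protein through which integrins grip the matrix, read 8367, 10002 and 7134 on its brightest probe set in controls, 8509, 8619 and 8786 with cytochalasin D and 8367, 8228 and 7502 with both drugs. Controls spanned the values of both other groups, while every cytochalasin D value lay above every double-drug value, and the change with cytochalasin D was 0.04 (interval −0.24 to 0.31). A second Fn1 probe set differed from it: it read 716, 757 and 349 in controls, 456, 497 and 539 with cytochalasin D and 273, 282 and 217 with both drugs. Every double-drug value lay below all others, and control replicate 7 was well below the other 2 controls. The double-drug group was lower than control by a log2 change of −1.12 (SE 0.28, interval −1.80 to −0.45, adjusted p = 0.41), which did not pass, and cytochalasin D stood above it by 0.91 (adjusted p = 0.779). Which part of the transcript either probe set reads was not analysed here.

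Sparc, a collagen-binding protein that fibroblasts secrete, read 14012, 13469 and 13309 in controls, 14360.1, 14208 and 13907 with cytochalasin D and 14333, 14205 and 13838 with both drugs on its brightest probe set. The highest control value overlapped with both drug groups, and the interval of the change with cytochalasin D, -0.0018 to 0.119, was the narrowest of the 37 genes. Lamc1, a laminin chain, read 205, 192 and 149 in controls, 279, 168 and 251 with cytochalasin D and 238, 155 and 169.9 with both drugs, with a change of 0.31 against control (adjusted p = 0.825). Cytochalasin D replicate 3 lay below 2 of the 3 controls. The second Lamc1 probe set gave 0.23 against control and 0.40 against both drugs, the latter without overlap of the groups. Lamb1, Nid1, Fbln2, Postn and Thbs2, proteins of basement membranes and of fibres, had changes with cytochalasin D against control between −0.13 and 0.04 on their brightest probe sets, and between −0.25 (Thbs2) and 0.20 (Nid1) on the others. Fbln1 lay under 8 on every array, at the floor of these values.

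Among the proteoglycans and the hyaluronan synthase 0 of 12 probe sets were called in any comparison. Has2, which makes the matrix polysaccharide hyaluronan, had the lowest change with cytochalasin D when the brightest probe set stands for each gene. Its brighter probe set read 196, 184 and 247 in control replicates 1, 3 and 7, 153, 79.4 and 172 with cytochalasin D and 159, 104 and 187 with both drugs. All cytochalasin D values lay below all controls, whereas double-drug replicate 7 overlapped with the controls. The change was −0.63 with cytochalasin D (interval −1.35 to 0.10, adjusted p = 0.587) and −0.46 with both drugs (interval −1.18 to 0.26). Its second probe set gave −0.65 and −0.46, with overlapping groups.

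Vcan, versican, a large proteoglycan that binds hyaluronan, read 760.1, 765 and 746 in controls, 711, 554 and 864 with cytochalasin D and 653, 562 and 681 with both drugs. On this probe set, the brightest of the gene, the controls lay within a narrow band and above every double-drug value. Cytochalasin D replicates spread to both sides of the controls. The change of Vcan with both drugs was −0.26 (interval −0.62 to 0.10). Its other probe sets with a mean of at least 20 gave −0.20 and −0.14, with overlapping groups. Dcn, decorin, which regulates fibril width, read 970.1, 1272 and 1104 in controls, 1122, 1457 and 1018 with cytochalasin D and 1074, 1410.3 and 1163 with both drugs. Bgn, its relative biglycan, read 9271, 9338 and 8551 in controls, 9236, 10372 and 9487 with cytochalasin D and 9374, 9967 and 8950.1 with both drugs. Both had groups that overlapped, with changes of 0.09 and 0.10 with cytochalasin D against control. Lum, lumican, lay under 6 on every array and was not tested.

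Among the crosslinking enzymes 0 of 8 probe sets were called in any comparison. Lox, lysyl oxidase, read 12217, 10706 and 8912 in control replicates 1, 3 and 7, 12577, 11855 and 10849.7 with cytochalasin D and 12583, 10459 and 9213 with both drugs. Replicate 1 was the highest in each group and replicate 7 the lowest, and the groups overlapped. Loxl1, a related oxidase, read 2149.6, 2334 and 1829 in controls, 2150.4, 2578 and 2078 with cytochalasin D and 2059, 2399 and 2020.4 with both drugs. Plod1, a lysyl hydroxylase that prepares collagen for crosslinking, read 332, 305 and 276 in controls, 332, 290.2 and 284 with cytochalasin D and 294, 277 and 262 with both drugs. The changes with cytochalasin D against control were 0.16, 0.11 and −0.01, and that of Plod2, a second lysyl hydroxylase, was −0.07. All 4 intervals stayed within a 2-fold change.

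Among the proteases and inhibitors 0 of 15 probe sets were called in any comparison, Timp3 included. Mmp14, a membrane-bound metalloproteinase that cuts collagen and activates Mmp2, read 1766, 2119.7 and 2094 in controls, 1713, 2612 and 2124 with cytochalasin D and 1685, 2479 and 1984 with both drugs. Replicate 3 was the highest in all 3 groups, and the groups overlapped. Timp1, a secreted inhibitor, read 1422, 1011 and 935 in controls, 1315, 1255 and 963 with cytochalasin D and 1288, 993 and 939 with both drugs. Replicate 1 was the highest in each group. Timp2, an inhibitor that also takes part in Mmp2 activation, read 13236, 12438 and 12275 in controls, 13840.1, 13334 and 11999 with cytochalasin D and 13506, 12989 and 12601 with both drugs. Their changes with cytochalasin D against control were 0.09, 0.08 and 0.04, and that of Mmp2, a gelatinase, was −0.04. Mmp3 and Mmp13, a stromelysin and a collagenase, lay under 7 on every array and were not tested.

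Probe sets of 1 gene were compared with each other. Of the 37 tested genes 25 had more than 1 tested probe set with a mean of at least 20. The changes with cytochalasin D against control of a gene's probe sets differed by 1.45 for Col1a2, by 0.55 for Timp3, by 0.35 for Timp2, by 0.34 for Thbs2 and by 0.33 for Thbs1, and by less for the other 20. Thbs1, Timp3 and Has2 had the same sign on each of these probe sets, which was common among the 25 genes. Col3a1, Col4a1, Col5a1, Col5a2, Col6a2, Col11a1, Sparc, Lamc1, Bgn, Vcan, Lox, Mmp2 and Mmp14 did so as well. Of the 87 tested probe sets 13 had a mean under 20, where a change is hard to see.

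**Figure D3:**
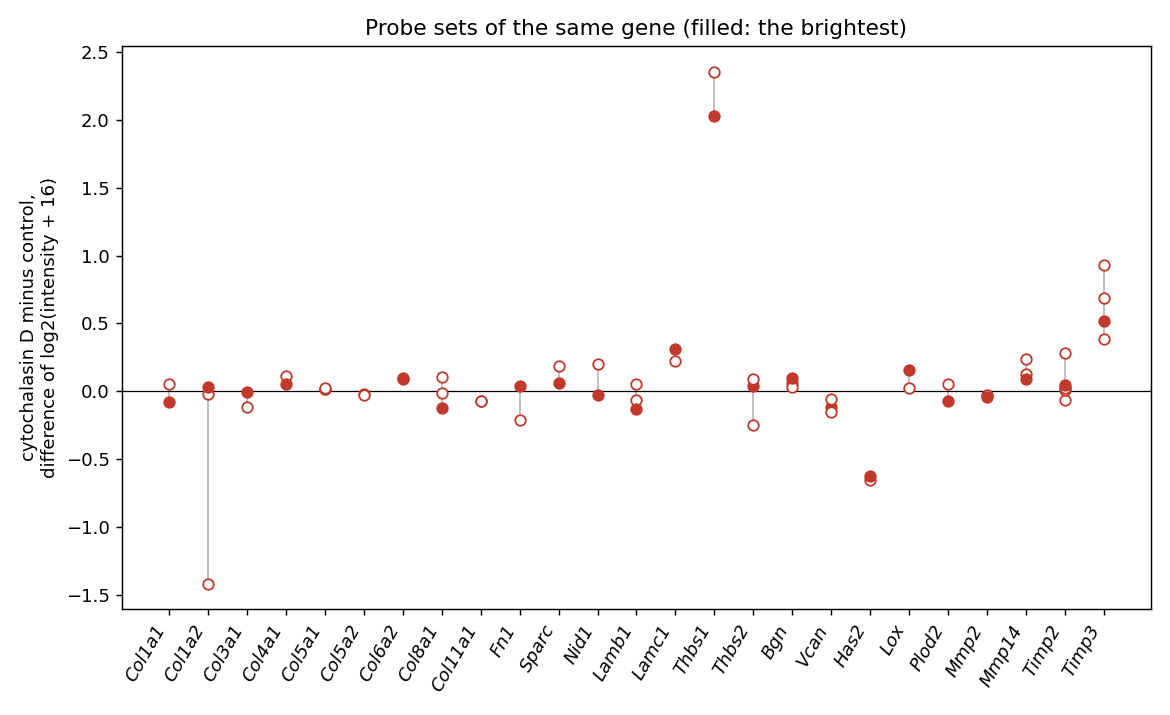
Change with cytochalasin D against control (difference of log2(intensity + 16)) for every tested probe set with a mean of at least 20, in the 25 genes that have more than 1; filled points are the brightest probe set of a gene and grey lines join its probe sets. The probe sets lie close together apart from 1 of Col1a2 at −1.42, and those of Thbs1 and Timp3 are all above 0.

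Cultures of the same group differed widely for some members. For 31 of the 37 genes the means of the 3 replicate numbers, over groups, spread further than the means of the 3 groups, over numbers (83.8%); over all tested probe sets this held for 69.5%. The median spread of the members was 0.30 on the log2 scale between numbers and 0.12 between groups. Postn, periostin, which supports collagen crosslinking, is an example: it read 329.6, 359 and 101 in control replicates 1, 3 and 7, 307, 296 and 131 with cytochalasin D and 306, 344 and 123 with both drugs. Replicate 7 was far below the other 2 in every group, and the interval of Postn's change with cytochalasin D, −1.44 to 1.42, spans both directions. That interval comes from the fit without the replicate number, so its width includes this spread between numbers. A second Sparc probe set read 9840.1, 5834 and 5255 in controls, 9253, 7697 and 6266 with cytochalasin D and 9742, 6012 and 5362 with both drugs, with replicate 1 highest in every group. Thbs1 also varied between numbers, with replicate 7 lowest in every group. On its brighter probe set, however, the group means spread further (2.03) than the means of the numbers (1.69). The labels do not say what cultures of 1 number shared.

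**Figure D4:**
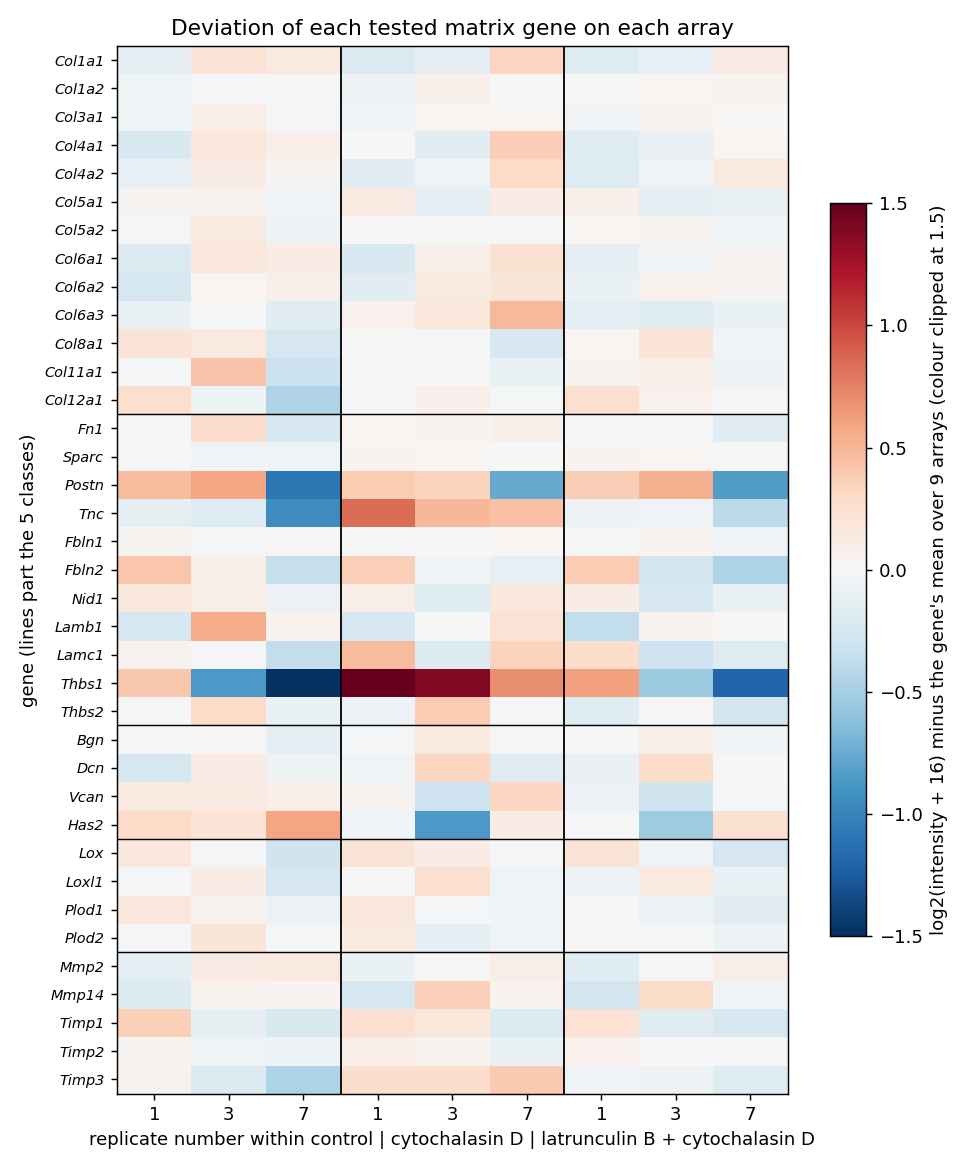
Deviation of log2(intensity + 16) from each gene's mean over the 9 arrays (colour, clipped at 1.5 in either direction), for the 37 tested genes in rows, by class, and the 9 arrays in columns, by group and replicate number. Thbs1 and Tnc are high in the cytochalasin D columns, and Postn is low in the columns numbered 7 of all groups.

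Other genes of the matrix were read from a list of 78 symbols, of which 72 had a probe set and 58 a tested one, 92 probe sets in all. In limma 0 rose, 0 fell and 92 were not called in each of the 3 comparisons, beside 1.57%, 0.111% and 0.259% of the array. At an unadjusted p under 0.05 there were 7, 2 and 3, beside 10.2%, 5.28% and 4.22% of the array. The median change of the 58 genes was −0.0218 with cytochalasin D against control, −0.0384 with both drugs against control and −0.00494 between cytochalasin D and both drugs. With cytochalasin D against control the smallest p belonged to Adamts5, a protease of the proteoglycan aggrecan, whose controls had 3377 ± 372 and whose cytochalasin D arrays had 2597 ± 215 (SD, n = 3; log2 change −0.37, adjusted p = 0.171). Adamts1, its relative, had 2943 ± 739 and 1827 ± 272 (log2 change −0.66, adjusted p = 0.319), and Ltbp3, which binds latent TGF-beta, 1824 ± 154 and 1483 ± 176 (−0.30, adjusted p = 0.332). In limma with the replicate number as a factor, Adamts1 was called lower here (adjusted p = 0.0314) and Cd44 higher, beside 3.87% of the array called. With both drugs against control Bmp1, the protease that trims procollagen, came first (51.6 ± 4.04 and 70.8 ± 9.09, log2 change 0.36, adjusted p = 0.268), before Adamts5 (−0.29) and Adamts1 (−0.48). Between cytochalasin D and both drugs the first 3 were Bmp1 (−0.19), Ltbp3 (−0.25) and P4ha2, a prolyl hydroxylase of procollagen (0.14). For each gene ranked here the probe set with the smallest p is given, which for Adamts5 and Bmp1 was not the brightest.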

How the data were processed

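RNA of 9 cultures was hybridised to Affymetrix arrays. The deposited intensity values, 1 per probe set and array on a linear scale, were normalized by the authors; MAS5 and GCRMA are named in the submitters' processing notes, with no word on which of them applies here, and the linear scale was inferred from the range of the numbers. Gene symbols came from the platform annotation. On log2(intensity + 16), limma 3.58.1 in R 4.3.3 was run (lmFit, eBayes) over all 9 arrays with 1 coefficient per group; tests were two-sided, and p-values were adjusted by Benjamini-Hochberg over 27010 probe sets, after leaving out 64 control probe sets. The fit was run on simulated data with independent noise on each array. Those data held no differences between replicate numbers, so the simulation does not show how the fit deals with them. Groups follow the agent label. The members and lists were chosen with earlier results of these data known. Array values are given for members called in any comparison, with or without the replicate number as a factor, and, in each class, for the 3 largest changes and the 2 brightest members; others were named after their values were seen. Correlations of deviations between arrays of 1 number were 0.41 to 0.83 in the comparisons with the double-drug group. In the first comparison they were 0.71, 0.08 and 0.65 for numbers 1, 3 and 7. Because of the low value for number 3 the numbers were not taken to pair samples there. Each of the 9 arrays still correlated best with an array of its own number, so whether the numbers pair the samples is not settled. Intervals and p-values of all 3 comparisons come from the fit without the number unless stated otherwise. Those of the double-drug comparisons thus include the variation between numbers. The fit with the number as a factor also called 0 members there. Alternatives were the pseudocount, filter, normalization, prior, arrays fitted and single arrays left out.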

Additional observations from a re-analysis of the deposited data

Results flagged for a closer look

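Outside the members, 1 probe set that the annotation gives to both Pald1 and Thbs1 carried a signal above the level in the control samples. It read 8922, 6489 and 4097 in control replicates 1, 3 and 7, 12372, 13929 and 13944 with cytochalasin D (mean 13415) and 9373, 7372 and 5790.5 with both drugs. All cytochalasin D values lay above the other 6. The log2 change against control was 1.11 (SE 0.30, limma, adjusted p = 0.195) and did not pass the test. Because 2 genes are named for it, it is not counted for either. With 3 arrays a group no test for single outlying arrays was made.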

How the results depend on the processing

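With cytochalasin D against control the count of member probe sets called was 1 as reported and 0 with a pseudocount of 64, with no filter, with only the 6 arrays compared and without the 3 arrays numbered 1 (the last added after seeing the data). Leaving out each array in turn gave 0 to 1, and the 1 was then Col1a2 only without control replicate 3, a probe set of Timp3 without control or cytochalasin D replicate 1, and one of Tnc without cytochalasin D replicate 3. With the probe set of largest change standing for a gene, 1 gene was called in place of 0. The other 2 comparisons held 0 calls under every alternative run. With the replicate number as a factor (replicate block), 4 member probe sets were called with cytochalasin D against control, 3 higher and 1 lower, beside 3.87% of the array: Thbs1 (adjusted p = 0.0413 and 0.0431), Tnc (0.0333) and Col1a2 (0.0229). Of 92 probe sets of other matrix genes this fit called 2, Adamts1 lower (0.0314) and Cd44 higher. The correlation of deviations from the group means was 0.71, 0.08 and 0.65 for numbers 1, 3 and 7 in this comparison, so the numbers were not taken to pair these samples, although each of the 9 arrays correlated best with an array of its own number. In the other comparisons all were over 0.1 (0.41 to 0.83), and the block changed no call of a member. Over the array it called 0.455% with both drugs against control, in place of 0.111%. Between cytochalasin D and both drugs it called 0.367%, in place of 0.259%. The test of replicate numbers across members was not run because of the low correlation for number 3 in the first comparison. Of 66 changes of named probe sets, 62 kept their side of the threshold and 35 their direction under every alternative run; the 31 that turned were not called in any setting where they did. With 3 arrays a group, precision is limited, and 13 of the 87 probe sets lie near the floor.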
